A study of Mus musculus with 12 samples.

Results

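Inflammatory and lipid-associated macrophage markers were followed here as a set of 8 genes: Itgax, Itgam, Trem2, Gpnmb, Mmp12, Cd68, Cd9 and Tyrobp. They were chosen by name, as the genes whose array annotation carried one of these symbols, and they were 8 of 34607 named genes and 12 of 55681 probes on the array. Liver RNA of 12 mice was hybridised to Agilent one-colour arrays, 1 array per mouse, in 3 groups of 4: E2f1 knockout (E2f1-/-), E2f2 knockout (E2f2-/-) and wild type, for which the labels give the strain 129/Sv x C57BL/6. All mice, wild type included, are described as having received 1 injection of diethylnitrosamine, a liver carcinogen, at 25 mg/kg on postnatal day 14, and a high-fat diet (60% fat calories) over 32 weeks. Killing took place at 9 months, with food withheld for 4 hours. The source field of the E2f1 knockouts speaks of vehicle and chow, against their titles, descriptions, characteristics and the protocol, and every comparison with that group carries this conflict. No liver without carcinogen and high-fat diet serves as a baseline here. Neither the sex of the mice nor the extent of each deletion is stated in the labels.

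Macrophages that enter an injured or fat-laden liver differ from the resident Kupffer cells that patrol its sinusoids. Where dying cells and lipid accumulate, such recruited cells take on a lipid-associated state in which the surface receptor Trem2 binds lipids and cell debris and signals through the adaptor Tyrobp (DAP12) towards uptake and lysosomal handling of the cargo. The state is usually recognised by Itgax (CD11c), Cd9, Gpnmb, Cd68 and secreted proteins such as Spp1 and Mmp12, while Itgam (CD11b) marks myeloid cells in general. None of these genes is confined to macrophages: Itgam is also an integrin gene of neutrophils and natural killer cells, and Cd9 is expressed by platelets, biliary cells and endothelium. In whole liver, fewer cells of a type and less RNA per cell cannot be told apart.

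Signal is given as the log2 intensity relative to the 75th percentile of the same array, so a value of 0 means as bright as that percentile, and a level of 1 probe says nothing against that of another. A difference of 1 on this scale is a doubling. The 75th percentile lay between 119.2 and 238.3 intensity units, and between 44.8% and 54.5% of probes were well above background, a flag of the scanner software. The number of arrays limits the precision. Differences were tested with limma in 1 fit of all 12 arrays, and a gene was called where its p, adjusted over all 20576 genes tested, was under 0.05. The E2f1 probe was lower in E2f1 knockout than in wild type livers by 0.82 ± 0.19 (SE; limma adjusted p = 0.0114), whereas the E2f2 probe averaged 0.54 ± 0.25 in the mice labelled E2f2 knockout and 0.80 ± 0.26 in wild type livers (SD, n = 4 each; limma adjusted p = 0.409 for the difference of -0.26 ± 0.21, SE). The E2f2 probe was lowest in E2f1 knockout livers, at -0.70 ± 0.38 (SD, n = 4), and fell by 1.50 ± 0.21 there against wild type (SE; limma adjusted p = 0.00141, called in all 21 alternatives), while the E2f1 probe differed by -0.16 ± 0.19 in the mice labelled E2f2 knockout (adjusted p = 0.58). Whether either probe lies inside the deleted part is not known. The E2f2 values do not bear out the E2f2 label, so that group is called the E2f2-labelled livers. Each slide held 1 array of each group, always at the same position on the slide for a group, so array position and group cannot be told apart. E2f1 knockout liver 1 stood apart from its group in Cfd and Fabp4, while the fat cell genes Adipoq, Plin1, Lep and Retn were not tested. Cfd, the adipsin gene, was at 4.09 there and between -3.80 and -2.28 in the other E2f1 knockout livers. Fabp4, a fatty acid carrier gene of fat cells and macrophages, was at 4.92 there against 0.87 to 1.81. Wild type livers read -4.73 to -0.98 for Cfd and 3.57 to 4.47 for Fabp4, so Fabp4 in liver 1 lay near the wild type readings.

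Against wild type, 4 of the 7 markers that could be tested were called lower in E2f1 knockout livers, and 6 of 7 in E2f2-labelled livers, with 0 called higher in either. Over all genes tested, 7.41% were called lower in E2f1 knockout livers and 7.58% in E2f2-labelled livers, and in either direction 20.6% and 22.2%. Itgax, Gpnmb, Cd9 and Trem2 were called in both comparisons, and Tyrobp and Cd68 only passed in E2f2-labelled livers, a difference between the comparisons that is tested further on. Itgam passed in neither, and Mmp12 was too dim to test. The members' median difference was -1.52 in E2f1 knockout livers, beside a median of 0.13 over all genes, and -1.47 in E2f2-labelled livers, beside 0.18. With Gpnmb at the bound given below, these medians were -1.22 and -1.39. Gpnmb reached the test only through its wild type signal and so had to differ. Of the 6 markers well above background on all 12 arrays, 3 were called lower in E2f1 knockout livers and 5 in E2f2-labelled livers. The E2f1 knockout count stayed at 4 without liver 1 of that group, and the E2f2-labelled count was 3 without E2f2-labelled liver 3 (Gpnmb, Itgax and Trem2). Both comparisons use the same 4 wild type livers and are therefore not independent of each other.

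**Figure D1:**
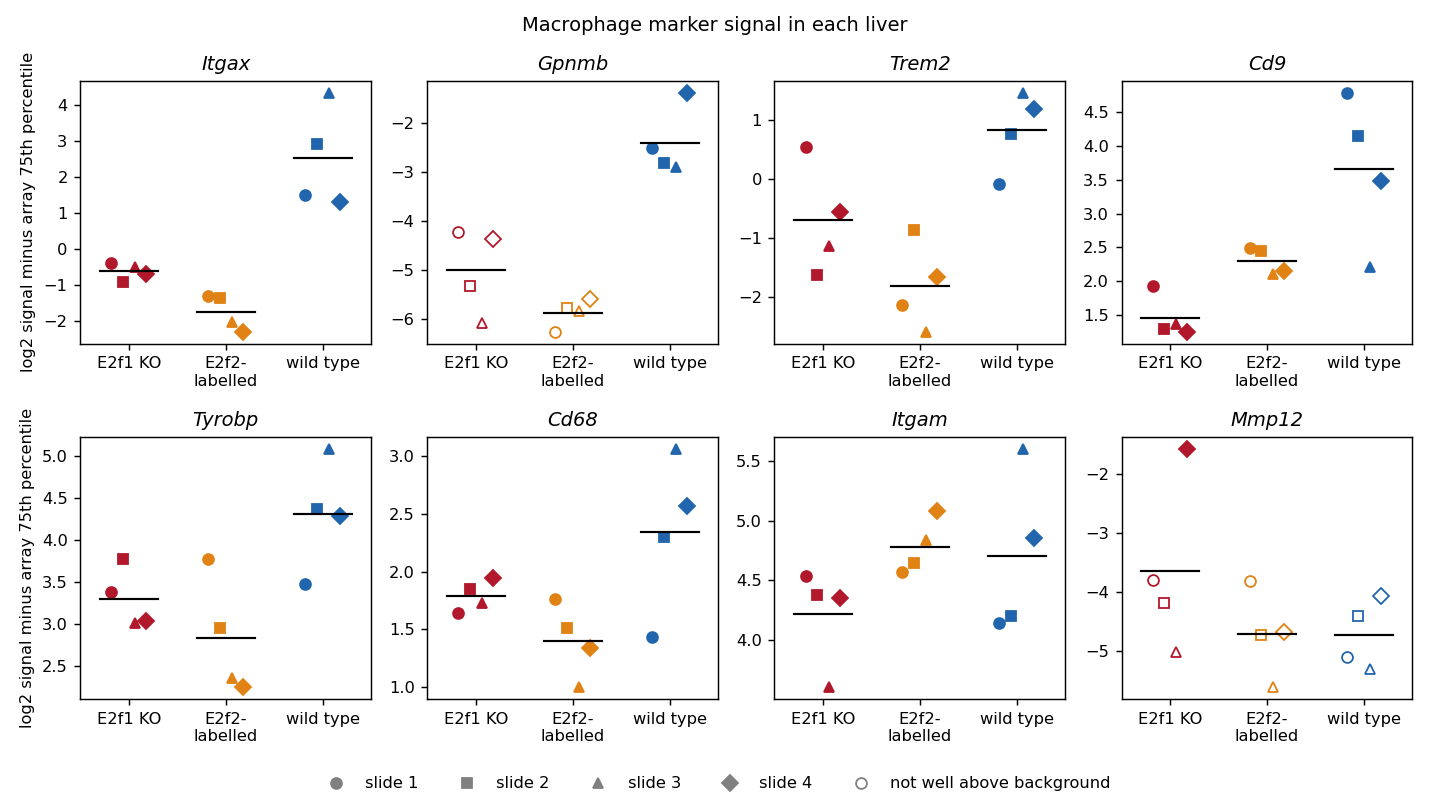
Signal of the 8 markers in each liver, as log2 intensity relative to the array's 75th percentile (vertical axis, scaled per gene), for E2f1 knockout, E2f2-labelled and wild type livers from left to right. Each symbol is 1 liver, its shape gives the slide, an open symbol marks a probe not well above background, and a line marks the mean of 4. Itgax, Gpnmb and Cd9 in E2f1 knockout livers, and Itgax, Gpnmb and Trem2 in E2f2-labelled livers, lie below every wild type liver, and Mmp12 is filled in 1 liver.

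The stretch of 250 bases before the start of each gene, from RefSeq on GRCm38.p6, is shown for the 4 markers called in both comparisons, on which the results turn. Capitals mark matches to 3 sets of letters searched on both strands: TGANTCA for AP-1, TTTNNCGC as a loose form of the E2F site, and GAGGAAG for the myeloid factor PU.1. The windows are Itgax at chr7:128129300-128129549 (plus strand), Trem2 at chr17:48346151-48346400 (plus strand), Gpnmb at chr6:49036268-49036517 (plus strand) and Cd9 at chr6:125494761-125495010 (minus strand).
Itgax: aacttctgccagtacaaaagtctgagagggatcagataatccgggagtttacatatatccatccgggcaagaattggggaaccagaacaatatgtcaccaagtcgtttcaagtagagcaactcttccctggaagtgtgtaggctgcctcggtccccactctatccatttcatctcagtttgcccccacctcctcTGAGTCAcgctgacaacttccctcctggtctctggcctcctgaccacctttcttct
Trem2: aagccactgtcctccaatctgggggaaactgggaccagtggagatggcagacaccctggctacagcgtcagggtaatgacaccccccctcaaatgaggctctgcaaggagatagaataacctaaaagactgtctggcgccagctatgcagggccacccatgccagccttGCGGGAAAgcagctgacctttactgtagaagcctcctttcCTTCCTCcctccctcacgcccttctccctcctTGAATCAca
Gpnmb: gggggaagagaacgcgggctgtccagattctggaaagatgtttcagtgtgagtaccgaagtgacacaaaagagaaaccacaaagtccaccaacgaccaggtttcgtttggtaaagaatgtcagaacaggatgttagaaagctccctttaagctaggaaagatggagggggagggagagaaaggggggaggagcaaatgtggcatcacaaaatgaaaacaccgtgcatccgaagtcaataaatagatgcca
Cd9: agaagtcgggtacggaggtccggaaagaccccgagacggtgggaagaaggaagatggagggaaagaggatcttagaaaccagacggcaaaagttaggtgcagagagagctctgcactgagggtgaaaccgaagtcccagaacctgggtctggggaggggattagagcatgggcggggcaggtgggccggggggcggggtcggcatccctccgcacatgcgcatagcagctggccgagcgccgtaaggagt
In the Itgax window the AP-1 letters begin 56 bases before the start. The Trem2 window holds all 3 motifs, with E2F letters at 81 bases, PU.1 letters at 41 and AP-1 letters at 9, none overlapping another. Neither the Gpnmb nor the Cd9 window has a match, which says only that these letters are not there. RefSeq windows were found for 7 of the 8 markers, 8 windows in all because Mmp12 has 2. AP-1 letters were in 4 of them, E2F letters in 1 and PU.1 letters in 3. Among 32851 mouse promoter windows of this length, 6.75% held the AP-1 letters, 4.28% the E2F letters and 10.6% the PU.1 letters. A match is a description of the sequence, not a bound site.

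Among the surface receptors, Itgax showed the widest gap. Its product, integrin alpha X, pairs with the beta-2 chain Itgb2 to form a complement receptor of dendritic cells and inflammatory macrophages. The Itgax probe (chromosome 7, mm9 positions 135294052 to 135294111) read -0.40, -0.92, -0.50 and -0.69 in the 4 E2f1 knockout livers, -1.31, -1.36, -2.03 and -2.30 in the 4 E2f2-labelled livers, and 1.49, 2.90, 4.32 and 1.30 in the 4 wild type livers. All 8 livers of the labelled genotypes lay below all 4 wild type livers, and the wild type livers spread over a wider range than either other group. Itgax fell by 3.13 ± 0.54 on the log2 scale in E2f1 knockout livers (SE; limma adjusted p = 0.00327), an 8.77-fold lower signal. In E2f2-labelled livers it fell by 4.25 ± 0.54 (limma adjusted p = 0.000499), a 19.1-fold lower signal. Within the 4 slides the differences ran from -4.82 to -1.89 for E2f1 knockout and from -6.35 to -2.80 for E2f2-labelled livers. In both comparisons Itgax passed under all 21 alternative settings tried.

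Trem2, the lipid-binding receptor, behaved less evenly. Its probe (chromosome 17, mm9 positions 48491537 to 48491596) read 0.55, -1.62, -1.13 and -0.55 in E2f1 knockout livers, -2.14, -0.86, -2.58 and -1.65 in E2f2-labelled livers, and -0.08, 0.77, 1.46 and 1.19 in wild type livers. The E2f2-labelled livers lay below every wild type liver, whereas E2f1 knockout liver 1 lay above wild type liver 1. Trem2 fell by 2.64 ± 0.49 in E2f2-labelled livers (SE; limma adjusted p = 0.0043), with within-slide differences of -4.04 to -1.63, and passed under all 21 alternatives. In E2f1 knockout livers it fell by 1.52 ± 0.49 (limma adjusted p = 0.0462). That call was at the edge: on slide 1 the E2f1 knockout liver was higher by 0.63, the slide as a block gave an adjusted p of 0.0763, and 10 of 21 alternatives kept it, with adjusted p between 0.0144 and 0.12. Leaving out wild type liver 2, 3 or 4, E2f1 knockout liver 2, 3 or 4, or E2f2-labelled liver 1 or 4 ended it.

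Tyrobp encodes the adaptor that carries the signal of Trem2 and several other myeloid receptors. Its probe spans 1728 bases of chromosome 7 (mm9 positions 31200651 to 31202378) with 60 bases of sequence, so it reads spliced RNA, and is shown for that reason.
Tyrobp probe: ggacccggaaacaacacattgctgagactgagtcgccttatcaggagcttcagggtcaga
Tyrobp read 3.38, 3.77, 3.01 and 3.03 in E2f1 knockout livers, 3.77, 2.95, 2.36 and 2.25 in E2f2-labelled livers, and 3.48, 4.37, 5.08 and 4.28 in wild type livers. Both other groups overlapped wild type through wild type liver 1 alone, the lowest of its group. Tyrobp fell by 1.47 ± 0.37 in E2f2-labelled livers (SE; limma adjusted p = 0.0165) and kept that call in 20 of 21 alternatives, the exception being the fit without E2f2-labelled liver 3 (adjusted p = 0.0501). For E2f1 knockout livers the difference of -1.01 ± 0.37 did not pass (limma adjusted p = 0.0771), with a 95% interval of -1.82 to -0.19 before adjustment. It passed without wild type liver 1 (0.0354) and without E2f2-labelled liver 1 (0.0477).

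Itgam encodes integrin alpha M, the other well-known partner of Itgb2 on myeloid cells, and its 3 tested probes disagreed. The brightest stood for the gene under the rule used for all genes, and it carries a run of CA repeats that 0.128% of the probes on the array share (71 of 55681 with a run of at least 20 bases), so the 3 sequences are shown with that run in capitals. From 5′ to 3′ of the gene they lie on chromosome 7 at mm9 positions 135212140 to 135212199, 135260275 to 135260334 and 135261755 to 135261814, and of the last the first 30 bases are printed.
Itgam probe 1: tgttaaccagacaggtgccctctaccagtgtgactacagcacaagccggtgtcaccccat
Itgam probe 2: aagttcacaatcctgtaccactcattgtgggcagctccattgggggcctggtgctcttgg
Itgam probe 3: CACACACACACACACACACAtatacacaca
Probe 3 read 4.53, 4.38, 3.60 and 4.35 in E2f1 knockout livers, 4.57, 4.65, 4.84 and 5.08 in E2f2-labelled livers, and 4.14, 4.20, 5.60 and 4.85 in wild type livers. The wild type values enclosed all E2f2-labelled values and all but 1 of the E2f1 knockout values. Neither the difference of -0.49 ± 0.31 for E2f1 knockout (SE; limma adjusted p = 0.306; 95% interval -1.16 to 0.19) nor that of 0.08 ± 0.31 for E2f2-labelled livers (limma adjusted p = 0.876; -0.59 to 0.76) passed. Probe 2, without a repeat, read -1.74, -1.80, -2.88 and -1.76 in E2f1 knockout livers, -1.53, -1.70, -2.86 and -1.09 in E2f2-labelled livers, and -1.52, -0.98, -0.73 and -1.63 in wild type livers. It differed by -0.83 ± 0.38 and by -0.58 ± 0.38 (limma adjusted p = 0.149 and 0.295, from the fit over all probes), and probe 1 by 0.19 and by -0.39 (adjusted p = 0.74 and 0.406). No Itgam probe passed, and in both comparisons the sign depended on the probe.

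Cd68 and Gpnmb encode glycoproteins of the endosomal and lysosomal compartment. Cd68, the macrosialin gene, is the usual general macrophage marker, and its brighter probe (chromosome 11, mm9 positions 69477775 to 69477834) read 1.64, 1.85, 1.73 and 1.94 in E2f1 knockout livers, 1.76, 1.51, 1.00 and 1.34 in E2f2-labelled livers, and 1.43, 2.30, 3.07 and 2.57 in wild type livers. As with Tyrobp, wild type liver 1 was the lowest of its group and lay inside or below the other groups. In E2f2-labelled livers Cd68 fell by 0.94 ± 0.29 (SE; limma adjusted p = 0.0367), the smallest of the called changes, with within-slide differences of -2.07 to 0.33. The call held in 13 of 21 alternatives, with adjusted p between 0.00533 and 0.0997, and was lost without wild type liver 2, 3 or 4, without E2f2-labelled liver 2, 3 or 4, with no filter on dim probes, and in a fit of the 2 groups alone. In E2f1 knockout livers the difference of -0.55 ± 0.29 did not pass (limma adjusted p = 0.206). The dimmer Cd68 probe, above background on 1 of 4 E2f1 knockout, 1 of 4 E2f2-labelled and 4 of 4 wild type arrays, reached the test through its wild type signal alone. Its fitted values, which rest mostly on readings not well above background in both genotypes, differed by -1.85 ± 0.45 for E2f2-labelled and by -0.93 ± 0.45 for E2f1 knockout livers (adjusted p = 0.0135 and 0.174).

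Gpnmb, a transmembrane glycoprotein gene switched on in lipid-loaded macrophages under lysosomal stress, separated the groups by detection. Its probe (chromosome 6, mm9 positions 49006386 to 49006445) cleared background on none of the 8 arrays of the 2 genotypes (0 of 4 in each) and on 4 of 4 wild type arrays. The readings were -4.22, -5.33, -6.09 and -4.36 in E2f1 knockout livers, -6.26, -5.79, -5.85 and -5.60 in E2f2-labelled livers, and -2.50, -2.82, -2.89 and -1.39 in wild type livers. Since only a bound can be had on the dim side, taken per array as the lowest signal well above background, the gene was at least 2.33-fold lower in E2f1 knockout livers and at least 2.62-fold lower in E2f2-labelled livers than in wild type. The fitted adjusted p were 0.00253 and 0.000365 (limma). With normexp background correction, which pulls dim probes together, neither passed (adjusted p = 0.0916 and 0.0712).

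Cd9, a tetraspanin gene of the cell surface, was the one marker whose E2f1 knockout level was the lowest of the 3 groups and clear of both others. The probe (chromosome 6, mm9 positions 125410387 to 125410446) read 1.93, 1.30, 1.37 and 1.26 in E2f1 knockout livers, 2.49, 2.44, 2.10 and 2.15 in E2f2-labelled livers, and 4.78, 4.14, 2.21 and 3.48 in wild type livers. Wild type liver 3 sat among the E2f2-labelled values, and the other 3 wild type livers were above every other liver. Cd9 fell by 2.19 ± 0.42 in E2f1 knockout livers (SE; limma adjusted p = 0.00513), within slides by -2.86 to -0.84, and passed under all 21 alternatives. In E2f2-labelled livers it fell by 1.36 ± 0.42 (limma adjusted p = 0.0382), within slides by -2.29 to -0.11. That call held in 12 of 21 alternatives, with adjusted p between 0.00103 and 0.105, and was lost without wild type liver 1, 2 or 4, without any 1 of the 4 E2f2-labelled livers, with no filter, and in a fit of the 2 groups alone.

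Mmp12 encodes macrophage elastase, a secreted protease that cuts elastin. Of its 2 probes on chromosome 9, one (mm9 positions 7352935 to 7352994) was well above background on 1 of 12 arrays, that of E2f1 knockout liver 4, at -1.57, and the other on 0 of 12. The other 11 readings of the first probe lay between -5.62 and -3.81 and are not well above background. Mmp12 was therefore not tested, and no level can be compared between the groups.

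**Figure D2:**
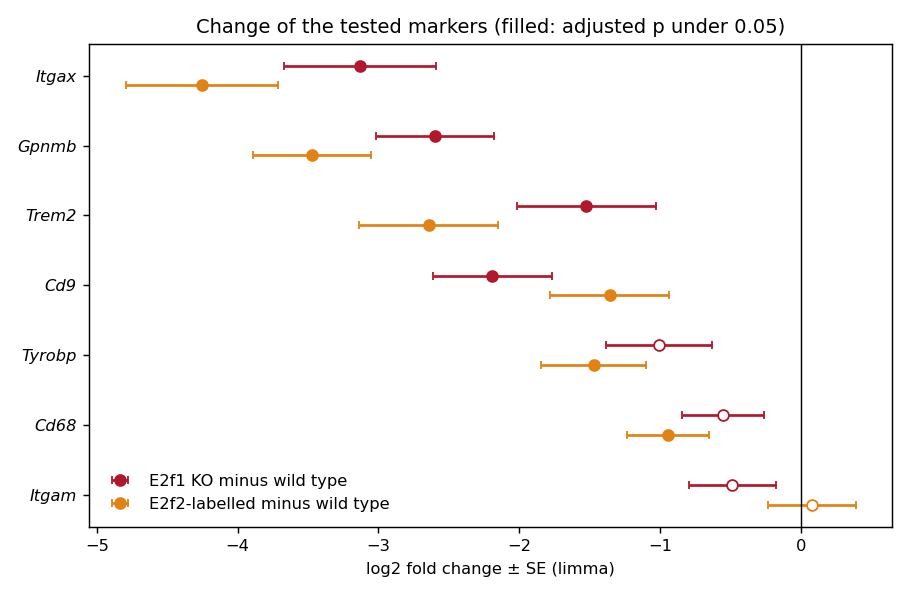
Log2 difference from wild type (horizontal axis) with its standard error for the 7 tested markers, for E2f1 knockout and E2f2-labelled livers, n = 4 per group. Filled symbols have a limma adjusted p under 0.05. Differences reach -4.25 for Itgax in E2f2-labelled livers, all 4 open symbols belong to Tyrobp, Cd68 and Itgam, and the Gpnmb values are fitted ones for which the text gives bounds.

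Without overlap between the groups, 3 of the 7 tested markers were lower in E2f1 knockout than in wild type livers (Itgax, Gpnmb and Cd9; 6.77% of all genes), and 3 were lower in E2f2-labelled livers (Itgax, Gpnmb and Trem2; 7.05%). Gpnmb reached the test only through its wild type signal, so its separation in both comparisons was built in and adds no support. The wild type livers themselves did not rank alike across markers. Itgax, Itgam, Trem2, Cd68 and Tyrobp were each highest in wild type liver 3, while Cd9 and Gpnmb were each lowest there. Spp1, the osteopontin gene of the same macrophage state and of biliary cells, was also at its lowest there, at 1.03 against 3.01 to 5.20 in the other 3 wild type livers.

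Set against E2f1 knockout livers, 0 of the 7 markers were called in E2f2-labelled livers by limma, beside 1.64% of all genes. Trem2 alone had an unadjusted p under 0.05 (adjusted p = 0.406 by limma), with a difference of -1.12 ± 0.49 and a lower value on 3 of 4 slides. Itgax was lower in every E2f2-labelled liver than in every E2f1 knockout liver, by -1.12 ± 0.54 (95% interval -2.30 to 0.05), as were 3.82% of all genes. Cd9 was higher in every E2f2-labelled liver, by 0.83 ± 0.42 (-0.08 to 1.75), and so was Itgam probe 3, by 0.57 ± 0.31 (-0.11 to 1.24), as were 5.23% of all genes. Differences were -0.39 ± 0.29 for Cd68 (-1.02 to 0.24), -0.47 ± 0.37 for Tyrobp (-1.28 to 0.35) and -0.87 for Gpnmb, which was not well above background in either group. Tyrobp and Cd68, called in 1 comparison with wild type and not in the other, were thus not shown to differ between the 2 genotypes.

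Other genes of the lipid-associated program moved beside the markers. Apart from Cd9, which belongs to both lists, 9 of 21 tested genes of the program fell in E2f1 knockout livers and 12 of 21 in E2f2-labelled livers, and 0 rose, with median differences of -1.31 and -1.60. Lpl, the lipoprotein lipase gene, fell in E2f1 knockout and E2f2-labelled livers (-2.56 ± 0.38 and -3.64 ± 0.38, SE; limma adjusted p = 0.00167 and 0.000138), and Ccl3, a chemokine gene, likewise (-2.53 ± 0.45 and -3.60 ± 0.45; 0.00382 and 0.000472), with 3 of 4 and 1 of 4 arrays above background, against 4 of 4 in wild type livers. Spp1 fell (-2.30 ± 0.72 and -2.39 ± 0.72; 0.0414 and 0.0343), but these calls held in only 9 and 13 of the 21 alternatives, with limma adjusted p up to 0.117 and 0.0945. Atp6v0d2, a proton pump subunit gene chosen after its values were seen, was the 1 gene of the list called between the genotypes: at least 2.61-fold lower in E2f2-labelled than in E2f1 knockout livers (limma adjusted p = 0.0223) and at least 5.06-fold lower than in wild type (0.000961). It was above background on 3 of 4 E2f1 knockout, 0 of 4 E2f2-labelled and 4 of 4 wild type arrays. Because it reached the test only through the 2 groups where it was bright, its separation from E2f2-labelled livers was built in. It is among the falls counted in E2f2-labelled livers.

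The partners of the receptors were looked at list by list. Of 12 tested genes of TREM and TYROBP signalling, 2 fell in E2f1 knockout livers and 7 in E2f2-labelled livers, and 0 rose (medians -0.73 and -1.06). Sirpb1a, a Tyrobp-coupled receptor gene, fell (-3.24 ± 0.57 and -3.38 ± 0.57; limma adjusted p = 0.00358 and 0.00261). Pilrb1, another receptor gene of that kind, differed by -0.53 ± 0.67 in E2f1 knockout livers (0.64) and fell by 2.15 ± 0.67 in E2f2-labelled livers (0.0393), where 1 of 4 arrays was above background. Fcer1g, the Fc receptor gamma adaptor and relative of Tyrobp, was the other gene of the list that fell in E2f1 knockout livers, by 1.72 ± 0.44, and it fell by 1.81 ± 0.44 in E2f2-labelled livers (0.018 and 0.0139); it was chosen after its values were seen.

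Itgb2, the beta-2 chain that both Itgax and Itgam need at the surface, read -0.02, 0.23, -0.25 and 0.14 in E2f1 knockout livers, 0.45, -0.21, -0.79 and -0.48 in E2f2-labelled livers, and 0.37, 1.72, 2.41 and 0.91 in wild type livers. It fell (-1.33 ± 0.39 and -1.61 ± 0.39; SE; limma adjusted p = 0.0305 and 0.013), and with the slide as a block the E2f1 knockout p was 0.0501. Itgad, the alpha D chain, was above background on 0 of 4 arrays of either genotype and 4 of 4 wild type arrays, which makes it at least 4.53-fold and at least 5.24-fold lower (0.011 and 0.00605). Itgad reached the test only through its wild type signal and so had to differ, and it is among the falls counted next. Across 12 beta-2 integrin partners and ligands, 4 fell and 1 rose in E2f1 knockout livers, and 4 fell and 0 rose in E2f2-labelled livers (medians -0.46 and -0.74). The 1 gene that rose was Cyth1, an integrin-regulating exchange factor gene, by 0.74 ± 0.19 (0.0193), against 0.50 ± 0.19 in E2f2-labelled livers (0.0819).

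Among 11 tested tetraspanins and Cd9 partners, 5 fell and 0 rose in E2f1 knockout livers, and 3 fell and 1 rose in E2f2-labelled livers (medians -0.50 and -0.39). Tspan8 fell (-4.12 ± 0.98 and -5.53 ± 0.98; SE; limma adjusted p = 0.0131 and 0.00331), and so did Cd63, the lysosomal tetraspanin (-2.92 ± 0.58 and -3.26 ± 0.58; 0.00582 and 0.00328). Tspan4 rose in E2f2-labelled livers by 0.72 ± 0.21 (0.0273), a call lost under quantile normalization (0.49, adjusted p = 0.14), and differed by 0.30 ± 0.21 in E2f1 knockout livers (0.339).

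Of 20 tested lysosomal genes and their MiT/TFE regulators, 1 fell and 2 rose in E2f1 knockout livers, and 6 fell and 3 rose in E2f2-labelled livers (medians -0.07 and -0.03). Over all genes tested, 7.41% were called lower and 13.2% higher in E2f1 knockout livers, and 7.58% and 14.6% in E2f2-labelled livers. Under quantile normalization 4 of the list fell and 1 rose in E2f1 knockout livers, and 7 fell and 1 rose in E2f2-labelled livers, so the balance depends on the normalization. Npc1, the lysosomal cholesterol exporter gene, rose by 1.10 ± 0.18 in E2f1 knockout livers (SE; limma adjusted p = 0.00256) and differed by 0.50 ± 0.18 in E2f2-labelled livers (0.062). Ctss, a cathepsin gene of antigen-presenting cells, fell by 1.24 ± 0.32 in E2f2-labelled livers (0.0164) and differed by -0.73 ± 0.32 in E2f1 knockout livers (0.124). Lamp2 rose in both, by 0.50 ± 0.14 and 0.67 ± 0.14 (0.0257 and 0.00699), and under quantile normalization by 0.24 and 0.41, where the first no longer passed (0.19).

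Of 10 tested metalloproteases, inhibitors and related genes, the family list of Mmp12, 5 fell and 0 rose in E2f1 knockout livers, and 5 fell and 1 rose in E2f2-labelled livers (medians -1.21 and -0.99, the second -0.86 with dim genes at their bound). Timp1, a metalloprotease inhibitor gene, fell (-2.31 ± 0.69 and -2.73 ± 0.69; SE; limma adjusted p = 0.0345 and 0.0164). Mmp19 rose in E2f2-labelled livers by 0.63 ± 0.18 (0.0288) and differed by 0.54 ± 0.18 in E2f1 knockout livers (0.0551). Mmp9, Mmp13, Eln and Plau were, like Mmp12, too dim to test.

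**Figure D3:**
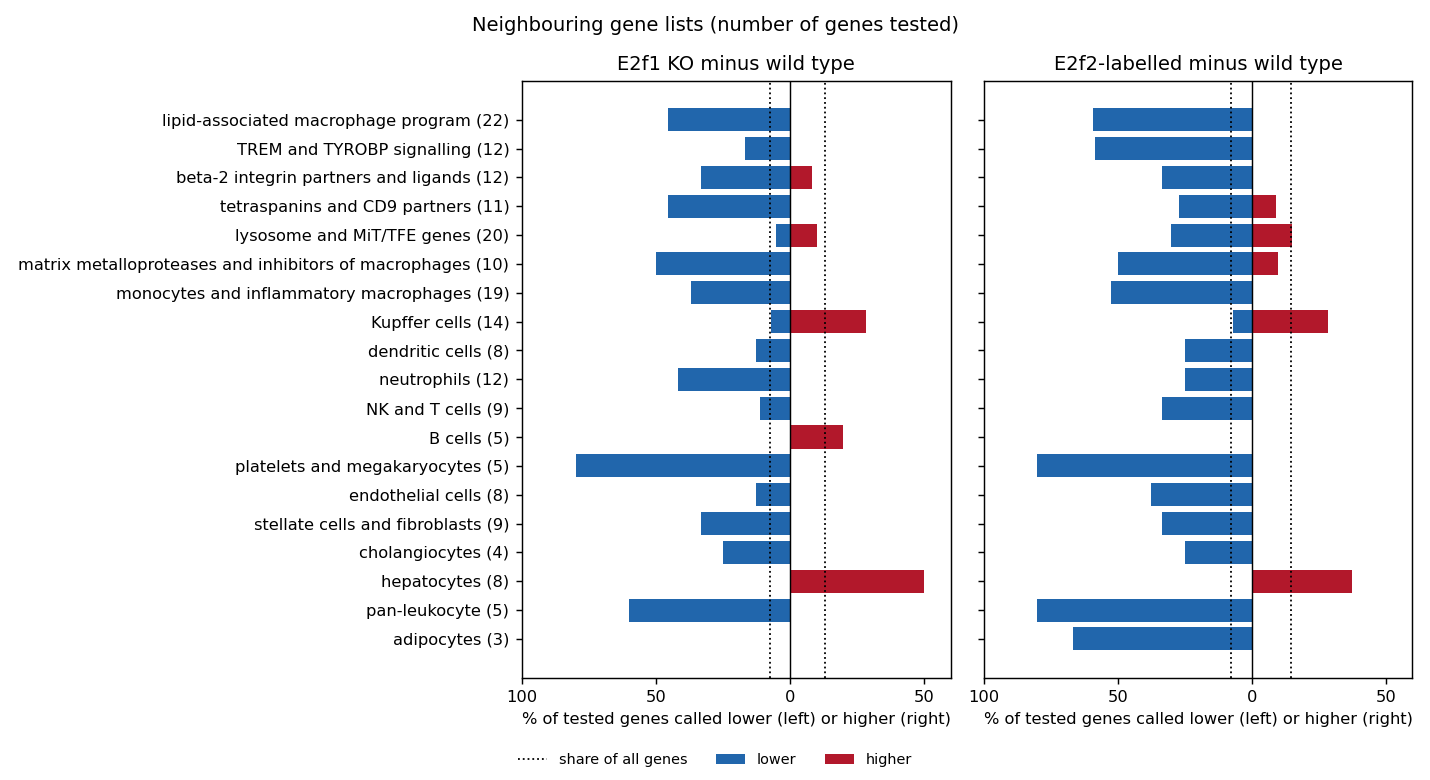
Share of the tested genes of each list (count in brackets) called lower (bars to the left) or higher (bars to the right) than wild type at a limma adjusted p under 0.05, in E2f1 knockout livers on the left and E2f2-labelled livers on the right. Dotted lines give the shares over all genes, 7.41% lower and 13.2% higher for E2f1 knockout and 7.58% and 14.6% for E2f2-labelled livers. Kupffer cell and hepatocyte genes have more called higher than lower in both panels. The lipid-associated, TREM, monocyte, neutrophil, dendritic, NK and T, platelet, endothelial, stellate, cholangiocyte and pan-leukocyte lists have calls on the lower side alone.

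Genes of other cell types were called beside the markers, and their part in the results was not tested. Pan-leukocyte genes fell in 3 of 5 tested cases in E2f1 knockout livers and 4 of 5 in E2f2-labelled livers, with a summed signal of 15.9 to 22.7 and 8.90 to 20.3, against 23.9 to 100 in wild type livers, in units of the array's 75th percentile. Coro1a and Cd52 fell in E2f1 knockout livers (-1.84 ± 0.39 and -1.25 ± 0.37, SE; limma adjusted p = 0.00818 and 0.0331) and in E2f2-labelled livers (-2.13 ± 0.39 and -2.19 ± 0.37; 0.00409 and 0.00264). Of 19 tested genes of monocytes and inflammatory macrophages, 7 fell in E2f1 knockout livers and 10 in E2f2-labelled livers, and 0 rose (medians -1.24 and -1.66, or -1.19 and -1.16 with dim genes at their bound). Tnf, which is in both counts, was above background on 0 of 4 arrays of either genotype and 3 of 4 wild type arrays. It reached the test only through its wild type signal and so had to differ. Their summed signal was 68.3 to 114 and 54.6 to 137, against 105 to 229 in wild type livers. Cd14, a co-receptor gene for bacterial lipopolysaccharide, fell (-2.50 ± 0.63 and -3.21 ± 0.63; 0.0161 and 0.00518), and so did Chil3 (-3.16 ± 0.93 and -2.89 ± 0.93; 0.0321 and 0.0438).

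Kupffer cell genes did not share the fall. Of 14 tested, 4 rose, 1 fell and 9 did not pass in each comparison, with medians of 1.04 and 0.94. Among all genes, 13.2% and 14.6% were called higher and 7.41% and 7.58% lower. The summed signal of the list was 250 to 502 in E2f1 knockout, 193 to 559 in E2f2-labelled and 101 to 306 in wild type livers. The haemoglobin scavenger receptor gene Cd163 was at least 3.42-fold and at least 3.12-fold higher (limma adjusted p = 0.0045 and 0.00509), with 0 of 4 wild type arrays above background. Cd163 reached the test only through its signal in the 2 genotypes and so had to differ, and it is among the rises counted in both comparisons. C6 rose by 1.62 ± 0.28 and by 1.88 ± 0.28 (SE; 0.00319 and 0.00127), and the gene that fell was Clec4e (-2.77 ± 0.71 and -2.48 ± 0.71; 0.018 and 0.0279). Clec4e was above background on 1 of 4 E2f1 knockout, 2 of 4 E2f2-labelled and 4 of 4 wild type arrays, so the sizes of its differences are uncertain. It reached the test through its wild type signal alone. Under quantile normalization 4 rose in E2f1 knockout livers and 2 in E2f2-labelled livers.

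Neutrophil genes, which share Itgam, fell in 5 of 12 tested cases in E2f1 knockout livers and in 3 of 12 in E2f2-labelled livers, and 0 rose (medians -2.64 and -1.12). With the slide as a block the E2f1 knockout count was 8. The summed signal was 193 to 381 and 239 to 723, against 390 to 806 in wild type livers, and without Csf3r, the brightest gene of the list, 24.1 to 155 and 25.3 to 532, against 221 to 587. Ltf and Ngp, genes of neutrophil granules, fell in E2f1 knockout livers (-4.01 ± 1.10 and -3.92 ± 1.18, SE; limma adjusted p = 0.0233 and 0.0346) and in E2f2-labelled livers (-3.32 ± 1.10 and -4.10 ± 1.18; 0.0476 and 0.0277). Ltf was above background on 2 of 4 E2f1 knockout and 3 of 4 E2f2-labelled arrays and Ngp on 1 of 4 and 2 of 4, against 4 of 4 wild type arrays for both, so these sizes are uncertain too. Ngp reached the test through its wild type signal alone. Platelet genes, which share Cd9, fell in 4 of 5 tested cases in each comparison (medians -1.83 and -1.68), with a summed signal of 1.25 to 2.69 and 1.00 to 2.23, against 3.43 to 7.65 in wild type livers, and Itga2b was not tested. Ppbp and Gp9 fell in E2f1 knockout (-2.21 ± 0.47 and -1.99 ± 0.44; 0.00795 and 0.00937) and in E2f2-labelled livers (-2.22 ± 0.47 and -1.68 ± 0.44; 0.00736 and 0.0183), where Gp9 was above background on 2 of 4 arrays, while both were on 3 of 4 E2f1 knockout arrays.

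Of 8 tested dendritic cell genes, which share Itgax, 1 fell in E2f1 knockout livers and 2 in E2f2-labelled livers (medians -0.29 and -0.20), and Xcr1, Cd209a and Ciita were too dim to test. Siglech alone made up 96.8% to 98.8% of the summed signal of this list, which was 290 to 390 and 325 to 373, against 276 to 343 in wild type livers. Without Siglech it was 4.76 to 6.67 and 3.94 to 6.35, against 7.38 to 10.6 in wild type livers. Cd24a fell (-2.21 ± 0.41 and -2.03 ± 0.41; SE; limma adjusted p = 0.00438 and 0.00584), and Batf3 by 1.47 ± 0.45 in E2f2-labelled livers (0.0379), against -1.02 ± 0.45 in E2f1 knockout livers (0.136). Among natural killer and T cell genes 1 of 9 fell in E2f1 knockout livers and 3 of 9 in E2f2-labelled livers, beside 7.41% and 7.58% of all genes. Eomes, in both counts, was above background on 1 of 4 E2f1 knockout, 0 of 4 E2f2-labelled and 3 of 4 wild type arrays. It reached the test through its wild type signal alone. Gzmb, in the second count, was above background on 3 of 4, 0 of 4 and 2 of 4 arrays. It reached the test through its E2f1 knockout signal alone. Among B cell genes 1 of 5 rose in E2f1 knockout livers and 0 of 5 passed in E2f2-labelled livers. Endothelial genes fell in 1 of 8 and 3 of 8 tested cases, among them Lyve1 (-2.91 ± 0.27 and -2.79 ± 0.27; 8.49e-05 and 6.97e-05). Stellate cell and fibroblast genes fell in 3 of 9 in each comparison, among them Col3a1 (-0.91 ± 0.25 and -1.50 ± 0.25; 0.0222 and 0.00231). Spp1 was the 1 gene of 4 tested biliary genes that passed, and the biliary markers Krt7 and Epcam were too dim to test. Hepatocyte genes rose in 4 of 8 and 3 of 8, and fell in 0 and 0, and under quantile normalization they rose in 3 and 2 and fell in 1 and 2. Of 3 tested adipocyte genes, a list added after earlier values were seen, 0 passed in E2f1 knockout livers and 2 fell in E2f2-labelled livers (Cidec at -3.18 ± 0.78 and Fabp4 at -3.50 ± 0.73, limma adjusted p = 0.014 and 0.00674). Adipoq, Plin1, Lep and Retn of that list were not tested.

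For each called marker the 3 genes most like it over the 12 arrays were looked up, as those with the smallest root mean square difference in log2 signal once each gene's mean was removed. A value well below the marker's own spread, measured the same way, means that the 2 genes went up and down together, and the arrays share their group differences, so this is a description. Nearest to Tyrobp were Nfam1 (0.176), Ly86 (0.185) and Evl (0.189), against an own spread of 0.80. Cd68 had Cyba (0.146), Rinl (0.192) and Axl (0.198) beside it, with an own spread of 0.54. Cyba encodes a subunit of the phagocyte NADPH oxidase and Axl a receptor for dying cells. Itgax lay closest to Spn (0.567), Fcgr4 (0.595) and Sirpb1a (0.613), with an own spread of 1.95, and Trem2 to Pstpip1 (0.519), Gm5086 (0.56) and H3c11 (0.577), with 1.28.

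The genes nearest to Cd9 were Emp2 (0.298), Prr5l (0.315) and Npdc1 (0.325), against 1.07, and those nearest to Gpnmb were Cyp2b9 (0.573), Clmp (0.598) and Lrmda (0.605), against 1.58. The Gpnmb values rest largely on readings not above background, on 8 of 12 arrays, and say little about likeness. Each of these 6 genes had a negative difference from wild type in both genotypes, from -2.73 to -1.88 in E2f1 knockout livers and from -3.81 to -1.14 in E2f2-labelled livers. Among the markers themselves, Cd68 and Tyrobp differed least (0.387, against own spreads of 0.54 and 0.80). The measure grows with a gene's own spread, so the pairs of markers are not ranked further.

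**Figure D4:**
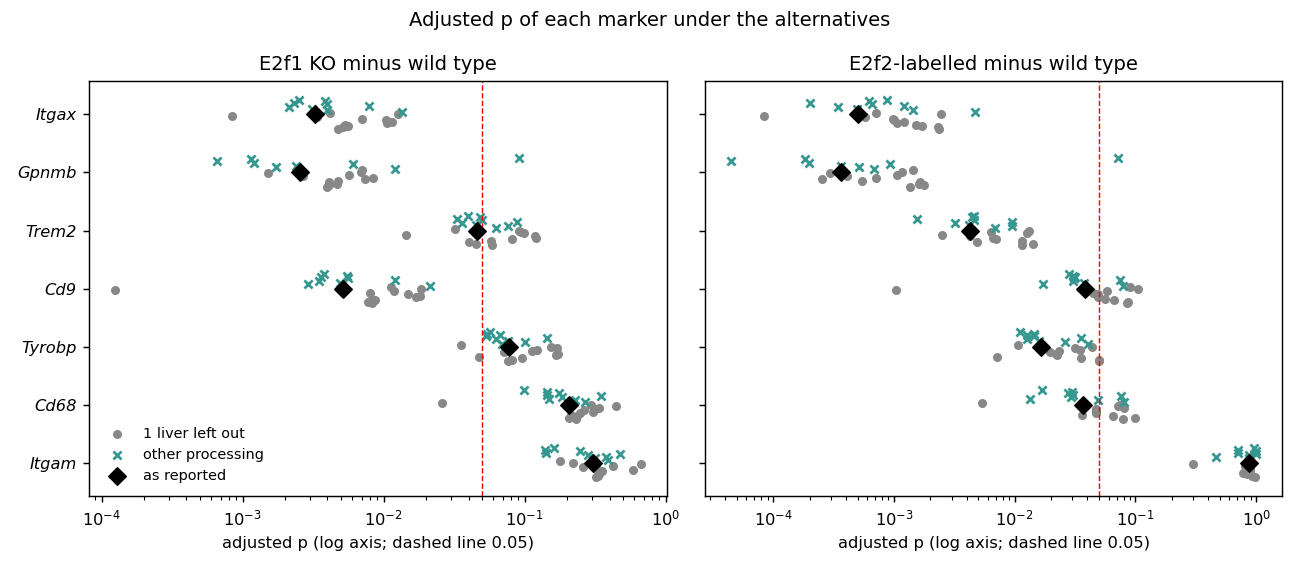
Limma adjusted p of each tested marker (horizontal log axis) as reported (diamonds), under other processing (crosses) and with 1 liver left out (dots), against the dashed line at 0.05, for E2f1 knockout on the left and E2f2-labelled livers on the right. Itgax stays left of the line in both panels, Cd9 in E2f1 knockout livers and Trem2 in E2f2-labelled livers do so too, and Gpnmb crosses it under 1 setting in each panel.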

How the data were processed

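Liver RNA (50 ng per mouse, per the labels' protocols) was labelled with Cy3 and read on 12 one-colour Agilent arrays. Per the file headers the deposited scanner values are background-subtracted processed intensity on a linear scale, and the submitters' processing notes name Agilent Feature Extraction 10.7.3.1. The deposited series matrix holds log2 values, and no source used here says how they were made. Its columns share 1 median (3.84) and correlate with the scanner log2 intensity at r of at least 0.998, and it served as an alternative. Its scale is thus log2, with the centring unknown.

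Control and outlier spots were left out, spots of a probe were averaged, log2 intensity was taken minus the array's 75th percentile, and probes were tested if 3 or more of the 4 arrays of some group cleared background (28442 probes). The brightest tested probe stood for a gene, which gave 20576 genes, 99 of them with a missing value that the fit leaves out. Of 55681 probes, 28020 were named through RefSeq accessions, 3423 by symbol and 295 by synonym, and 23943 kept the array's name. Probe positions are mm9, from the files. The fit used limma 3.58.1 in R 4.3.3, without covariates (9 residual degrees of freedom, prior 3.13), with Benjamini-Hochberg adjustment, and was tested on simulated data. Groups follow the titles and characteristics. The replicate number is the slide, which the reported fit does not use as a block.

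The markers, lists and tests were chosen with earlier results of these data known. Named genes are all 8 markers, up to 2 largest called rises and 2 largest called falls per list, and the 3 genes most like each called marker. Some genes that the rule or the lists hold are not reported here. Alternatives were normexp (offset 50), quantile normalization, centring on each array's median, series matrix values, no filter, a filter on all 12 arrays, the mean of all tested probes, the slide as a block, a fit of the 2 groups alone, and leaving out each liver. Protein sequences were not used here.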

Additional observations from a re-analysis of the deposited data

Results flagged for a closer look

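A liver standing far from the other 3 of its group was looked for with Dixon's ratio, the gap to the nearest liver over the group's range, in 36 sets of 4 values (12 probes of the 8 markers in 3 groups), and 2 exceeded the 95% critical value for 4 values. Chance passes about 1 in 20 such sets. Cd9 in E2f1 knockout liver 1 read 1.93, with the other livers of the group between 1.26 and 1.37 (ratio 0.834). Without that liver Cd9 differed from wild type by -2.35 in E2f1 knockout livers (limma adjusted p = 0.00803). Itgam probe 2 in E2f1 knockout liver 3 read -2.88, with the others between -1.80 and -1.74 (ratio 0.943). The probe passed in neither comparison with wild type.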

How the results depend on the processing

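Over 21 alternatives, 396 of 438 marker values kept their direction and their side of the threshold, 31 no longer passed, 3 newly passed and 8 changed sign. These values pool the 3 comparisons, and between the genotypes, where 0 markers were called, there was no call to lose. Of the 31 lost calls, 11 were of Trem2 in E2f1 knockout livers, and 9 of Cd9 and 8 of Cd68 in E2f2-labelled livers. The sign changes were all of Itgam in E2f2-labelled livers, reported as 0.08: -0.021 with normexp, -0.203 with quantile normalization, -0.003 with median centring, -0.203 with series matrix values, -0.297 with the mean of its probes, -0.104 and -0.085 without wild type liver 1 or 2, and -0.017 without E2f2-labelled liver 4 (with 1 liver left out, -0.104 to 0.382). Probe 2, chosen after seeing the data because it lacks the repeat, gave -0.58. The cause of these shifts was not tested. With 1 liver left out, 3 to 6 markers were called in E2f1 knockout livers, 3 to 6 in E2f2-labelled livers and 0 to 0 between the genotypes. With the replicate block (the slide), 3, 6 and 0 were called and Trem2 in E2f1 knockout was the 1 call lost among the markers. Genes called numbered 4235 for E2f1 knockout, 2786 with no filter on dim probes (more genes tested) and 2539 to 4897 with 1 liver left out. They numbered 4566 for E2f2-labelled livers, 2990 with no filter, 2927 with median centring and 2757 to 5279 with 1 liver left out. Between the genotypes they numbered 337, 217 with normexp, 208 with the filter on all 12 arrays (fewer genes tested) and 235 to 373 with 1 liver left out. With the replicate block they were 5487, 6294 and 436. Of 12 same-slide pairs of arrays, 10 deviated from their group means together with r above 0.1 (range 0.04 to 0.42). The other 2, both on slide 1, did not, and the slide was kept as an alternative. Of the genes called, 64.0% were higher for E2f1 knockout and 65.9% for E2f2-labelled livers, against 50.4% and 49.5% under quantile normalization. The Gpnmb and Mmp12 values were limited by signal over background.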
